A study of Caenorhabditis elegans with 10 samples.

Results

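The MATH, BATH and fbxb genes of *Caenorhabditis elegans* were described across the 4 deposited columns of an RNA-seq comparison of GMC101 and CL2122 worms. Members were the protein-coding genes whose symbol begins with math-, bath- or fbxb-, outside chromosome V from 2 to 4 Mb. The rule uses no measured value, except that a gene had to be listed, with at least 2 reads over both strains of a table. It gave 179 genes of 22554 listed in either table, made up of 39 math, 37 bath and 103 fbxb genes. Of the 179, 44 were listed at 24 h only and 1 at 8 h only. By start position, 92 members (51.4%) lay on chromosome II between 0.5 and 2.5 Mb, a stretch that holds 2.57% of all listed genes.

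GMC101 carries unc-54p:A-beta-1-42 and mtl-2p:GFP, so that human Aβ is made from a promoter of body wall muscle, and CL2122 carries the unc-54 vector pPD30.38 without Aβ, together with mtl-2:GFP. In both strains the GFP marker is driven by an intestinal promoter, and both were grown to young adults at 20 °C and then kept at 25 °C for 24 h or 8 h. RNA was taken from worms as a whole, so that fewer cells of a type and less RNA per cell cannot be told apart. The labels list 3 samples of each strain at 24 h and 2 of each at 8 h, and name the stage L1, where the methods describe young adults. In the tables themselves all 17 genes of a list for oocytes and eggshell, which adult hermaphrodites express, were measured at both times.

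Each table held 1 value per gene and strain, from which whole reads were recovered. These summed to 25283085 reads in GMC101, against 24583097 in CL2122 at 24 h, and to 20533034 in GMC101, against 22520669 in CL2122 at 8 h. With no replicates in the columns, strain differences compare these columns and have no replicate check. Levels are given as reads, as CPM (counts scaled to a common library total), or, where genes are compared with each other, as RPKM, the CPM per kilobase of gene length. A log2 fold change is that of GMC101 over CL2122 after TMM scaling within a table, with a 95% exact Clopper-Pearson interval that covers counting error only. CPM and RPKM are not TMM-scaled, so the ratio of printed levels between the strains differs from the log2 fold change. A gene was counted as measured with at least 10 reads summed over both strains, and it is called lower or higher where it differed more than 2-fold with an interval that excluded 0.

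All 3 series belong, by their domains, to the ubiquitin system, in which E3 ligases attach ubiquitin to chosen proteins and mark them for the proteasome. BATH proteins join a MATH domain, which binds the protein to be degraded, to a BTB domain, which binds the cullin CUL-3. MATH proteins carry the MATH domain without BTB. The fbxb genes encode F-box proteins, whose F-box binds a Skp1-related protein and through it the cullin CUL-1 in an SCF ligase. These families are large in nematodes, their genes lie in tandem groups, and for most members no single target is known. MATH-33 is an exception, a deubiquitinating enzyme related to human USP7 that removes ubiquitin from its targets.

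At 24 h, the fbxb genes had lower values in GMC101 than in CL2122, most of them by more than 2-fold. Their reads summed to 490.1 CPM in GMC101, against 1750.1 CPM in CL2122. The log2 ratio of these sums was -1.65 after TMM scaling (counting interval -1.67 to -1.62) and -1.84 with total-read scaling. All 103 were measured and all 103 had a log2 fold change below 0, between -3.66 and -0.26, with a median of -1.73. Of these, 92 were called lower and none higher. Across all 17703 genes measured at 24 h, 12.2% were called lower and 9.02% higher, and the median log2 fold change was -0.01. The fbxb genes had a median of 90 reads and a highest value of 724 reads in GMC101, against a median of 317 and a highest value of 2099 reads in CL2122. A biological spread between worm populations is not in these intervals. In edgeR's exact test at a biological coefficient of variation set to 0.2, 80 fbxb genes passed as lower (4.72% of all genes), and with a coefficient of 0.4 no member passed (0.0365% of all genes).

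**Figure D1:**
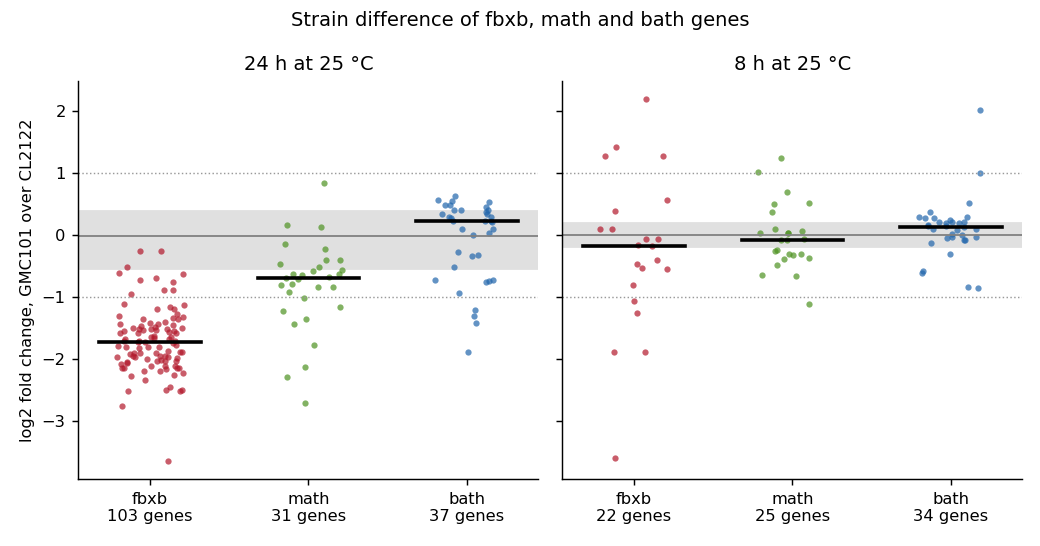
Log2 fold change of GMC101 over CL2122 (vertical axis, no unit) for each measured fbxb, math and bath gene at 24 h (left) and 8 h (right). Each point is 1 gene, black bars are medians, the grey line and band are the median and the middle 50% of all measured genes, and dotted lines mark 2-fold. At 24 h all 103 fbxb points lie below 0 with a median of -1.73, while the bath median is 0.21 with TMM scaling and 0.02 with total-read scaling.

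Among fbxb genes with at least 50 reads in CL2122, those with the largest differences at 24 h had 66 reads or fewer in GMC101. *fbxb-51* (chromosome II, 1550712 to 1551804) had 66 reads in GMC101, against 498 in CL2122 at 24 h, a log2 fold change of -2.77 (interval -3.16 to -2.39), and 0 and 2 reads in these strains at 8 h. Next came *fbxb-81* (chromosome III, 140134 to 141209), with 44 reads in GMC101, against 278 in CL2122, and the log2 fold change was -2.51. *fbxb-48* (chromosome II, 1718175 to 1719253) had 38 reads in GMC101, against 240 in CL2122, a log2 fold change of -2.51 as well. These 3 genes were each at 2 reads or fewer in either strain at 8 h. *fbxb-92* had 42 reads in GMC101, against 227 in CL2122 at 24 h, with a log2 fold change of -2.28. For *fbxb-29* and *fbxb-112*, both on chromosome II, GMC101 had 13 reads each, against 79 and 73 reads in CL2122, and the log2 fold changes were -2.45 and -2.34. The lowest value of the series, -3.66, was that of *fbxb-39* and rests on only 2 reads in GMC101, and *fbxb-117*, at -2.53, had 5 reads there (both named after their values were seen).

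Levels differed widely within the series, but CL2122 was above GMC101 for each of the 103 genes at 24 h. *fbxb-10* (chromosome II, 1817281 to 1818400) had the highest level of the series in CL2122 at 24 h, 80.2 RPKM, against 21.8 RPKM in GMC101. Its 587 reads in GMC101, against 2099 in CL2122, corresponded to a log2 fold change of -1.69 (interval -1.82 to -1.56). At the other end, *fbxb-79*, named after its values were seen, had 5 reads in GMC101, against 8 in CL2122. It was one of the 11 fbxb genes that were not called, with *fbxb-7*, *fbxb-9*, *fbxb-22*, *fbxb-32*, *fbxb-49*, *fbxb-55*, *fbxb-66*, *fbxb-67*, *fbxb-97* and *fbxb-101*, a group defined by its values. Some of these had few reads, and others had many. *fbxb-66* (chromosome I, 13423994 to 13425148) had 724 reads in GMC101, against 1498 in CL2122, a log2 fold change of -0.90 (interval -1.03 to -0.77). *fbxb-67* (chromosome I, 14297287 to 14298265) had 127 reads in GMC101, against 169 in CL2122, and the interval of its log2 fold change of -0.26 ran from -0.61 to 0.08.

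The bath genes did not share this difference at 24 h. They summed to 1245 CPM in GMC101, against 1289 CPM in CL2122, and 23 of 37 had a log2 fold change above 0. The median was 0.21, and the values ran from -1.89 to 0.62. With the columns scaled to their total reads, which moved every log2 fold change at 24 h by -0.19, the median was 0.02 and the log2 ratio of the summed reads changed from 0.14 to -0.05, so that no direction is given for the series. None was called higher and 4 were called lower, beside the 9.02% and 12.2% of all genes above.

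The most abundant bath genes were close between the strains. *bath-42* (chromosome III, 8161449 to 8163383) was the highest of all members, at 143 RPKM in GMC101, against 123 RPKM in CL2122 at 24 h, and 110.4 RPKM in GMC101, against 107 RPKM in CL2122 at 8 h. After it came *bath-40* (chromosome I, 14647782 to 14651456), at 111 RPKM in GMC101, against 104 RPKM in CL2122 at 24 h. *bath-41* (chromosome III, 6720415 to 6722258), which overlaps another listed gene, was at 97.8 RPKM in GMC101, against 80.3 RPKM in CL2122. *bath-43* (chromosome III, 10090862 to 10098081) went the other way, with 76.3 RPKM in GMC101, against 111 RPKM in CL2122, a log2 fold change of -0.35 (interval -0.42 to -0.29). For *bath-30* (chromosome II, 3345218 to 3346378) the levels were 74.2 RPKM in GMC101, against 67.0 RPKM in CL2122. None of these 5 differed by 2-fold at either time, and the order of their levels was not the same in the 4 columns.

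The 4 bath genes called lower at 24 h, singled out here by their values, were *bath-9*, *bath-10*, *bath-13* and *bath-46*, all on chromosome II. *bath-10* (3375079 to 3376714) had 250 reads in GMC101, against 1026 in CL2122, a log2 fold change of -1.89 (interval -2.09 to -1.69). Its neighbor *bath-9* (3377111 to 3378726), which overlaps a further gene, had 294 reads in GMC101, against 761 in CL2122, a log2 fold change of -1.22 (interval -1.42 to -1.03). These 2 genes end a row of 7 bath members between 3343710 and 3378726 in which the others had log2 fold changes from -0.0016 to 0.62. Beyond them, from 3380288 to 3381403, lies the pseudogene *bath-8*, not a member. It had 17 reads in GMC101, against 38 in CL2122 at 24 h, and was called lower too. *bath-13* had 30 reads in GMC101, against 89 in CL2122, and *bath-46* had 20 and 55 reads in these strains. Only *bath-9* and *bath-10* passed edgeR's exact test at a coefficient of 0.2, where 4.72% of all genes passed as lower.

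The math genes lay between the other two series. Of the 39, 31 were measured at 24 h, 28 of these had a log2 fold change below 0, and the median was -0.70. Of the 31, 7 were called lower and none higher, beside 12.2% and 9.02% of all genes. Their reads summed to 413 CPM in GMC101, against 646 CPM in CL2122. The log2 ratio of these sums was -0.45 after TMM scaling (interval -0.49 to -0.42) and -0.64 with total-read scaling. Much of this sum was *math-33* (chromosome V, 11113914 to 11118818), the USP7-related gene, with 7135 reads in GMC101, against 9268 in CL2122 at 24 h and 4410 reads in GMC101, against 4979 in CL2122 at 8 h. Its log2 fold change was -0.23 at 24 h (interval -0.27 to -0.18) and -0.08 at 8 h (interval -0.13 to -0.02), under 2-fold at both times. At 24 h it reached 67.0 RPKM in GMC101, against 89.5 RPKM in CL2122, where the median of the 38 math genes listed was 0.964 RPKM in GMC101, against 1.90 RPKM in CL2122.

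Among the 7 math genes called lower, *math-34* and *math-28* differed most. *math-34* (chromosome II, 1028987 to 1033664) had 55 reads in GMC101, against 301 in CL2122 at 24 h, a log2 fold change of -2.30 (interval -2.74 to -1.88), and 12 reads in GMC101, against 8 in CL2122 at 8 h. *math-28* (chromosome II, 1763372 to 1766555) had 7 reads in GMC101, against 51 in CL2122, a log2 fold change of -2.71 (interval -4.10 to -1.57), and was not listed at 8 h. The other five, named after their values were seen, were *math-10*, *math-27*, *math-29*, *math-38* and *math-42*. Of these *math-38* (chromosome II, 1577471 to 1579986) had the most reads per kilobase, with 566 reads in GMC101, against 1418 in CL2122, and the log2 fold change was -1.17 (interval -1.32 to -1.03). *math-27* overlaps *math-3* and *math-26* in the tables, where all 3 are listed apart, and its 607 reads in GMC101, against 1365 in CL2122, may include theirs. In all, 19 members overlap another listed gene, whose reads cannot be told apart without strand, and the handling of reads that match near-identical copies is not stated.

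Over the 3 series together, 103 of 171 measured members (60.2%) were called lower at 24 h and 0 were called higher, beside 12.2% and 9.02% of all genes. The median log2 fold change was -1.43. With at least 10 reads in GMC101 alone, 98 of 156 members were called lower. Under this minimum, 7.40% of the 14825 genes that were also measured at 8 h were called lower. For the 977 genes that were below 10 reads or not listed at 8 h, it was 46.5%. With total-read scaling the 103 were still called, among 109 in all. In edgeR's exact test with a coefficient of 0.2, 85 members passed as lower, of which 80 were fbxb, 3 math and 2 bath genes. Of all genes, 4.72% passed as lower in this test.

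At 8 h, few members were called between the strains, and most fbxb genes could hardly be measured. Of the 103 fbxb genes, 66 were listed at 8 h and 22 had at least 10 reads. The reads of the 66 summed to 23.7 CPM in GMC101, against 29.2 CPM in CL2122. The log2 ratio of these sums was -0.34 after TMM scaling (interval -0.51 to -0.16) and -0.30 with total-read scaling. The median level of the 66 was 0.146 CPM in GMC101, against 0.133 CPM in CL2122, about 3 reads. In GMC101, 14 of the 66 had 0 reads, and in CL2122 6 did, which allows up to 0.146 CPM in GMC101, against 0.133 CPM in CL2122 (3 reads). Of 81 members measured at 8 h, 4 were called lower and 2 higher, where 4.14% of all genes were called lower and 2.27% higher. The median log2 fold change of the members was 0.01. For bath it was 0.13, for math -0.08 and for fbxb -0.18.

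**Figure D2:**
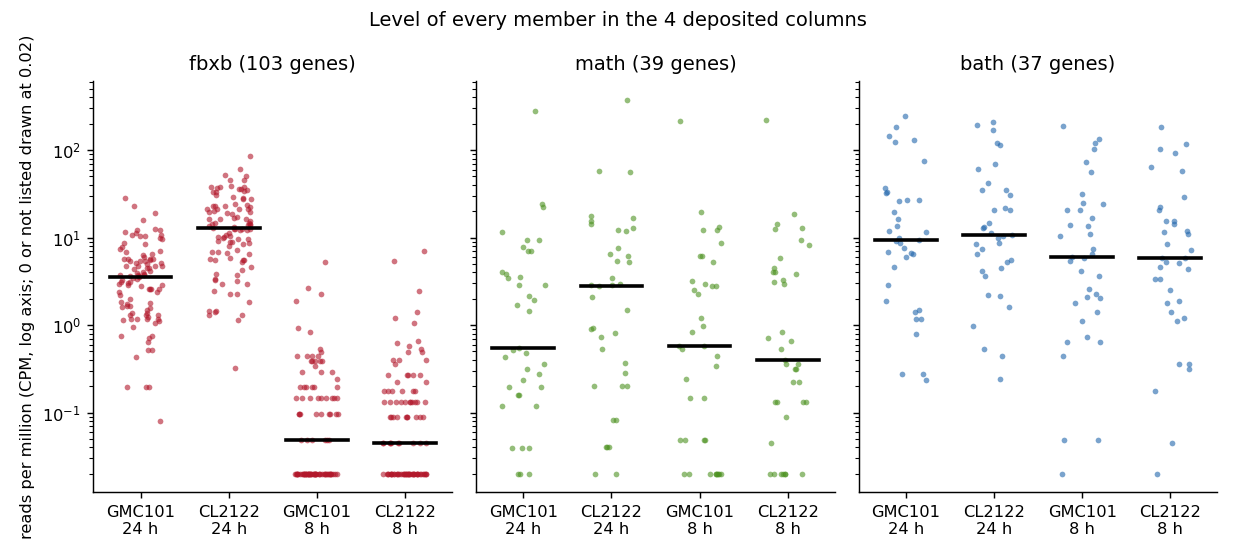
Level in CPM of each fbxb, math and bath gene (log axis) in GMC101 at 24 h, CL2122 at 24 h, GMC101 at 8 h and CL2122 at 8 h. Points are genes, black bars are medians over all members of a series, and a gene with 0 reads or not listed is drawn at 0.02. The fbxb genes are near the bottom in both strains at 8 h, and at 24 h their median among listed genes is 3.56 CPM in GMC101, against 12.9 CPM in CL2122.

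The 6 calls at 8 h rested on few reads. *fbxb-97* (chromosome II, 1846990 to 1848154) was the only one with 50 reads or more in either strain, at 47 reads in GMC101, against 121 in CL2122, a log2 fold change of -1.26 (interval -1.78 to -0.77). At 24 h it had 93 reads in GMC101, against 161 in CL2122, a log2 fold change of -0.64 (interval -1.03 to -0.26). At both times, 4 fbxb genes were called. The share of all genes called at both times was not counted, so whether 4 is more than that share is not known. At 8 h, 4.14% of all genes were called lower and 2.27% higher, and at 24 h 12.2% and 9.02% were. *fbxb-93* (chromosome I, 14083048 to 14084214) had 135 reads in GMC101, against 337 in CL2122 at 24 h, and 1 read in GMC101, against 13 in CL2122 at 8 h. *fbxb-100*, of the same group of 4 fbxb genes, had 145 reads in GMC101, against 471 in CL2122 at 24 h, and 6 and 24 reads in these strains at 8 h. *fbxb-45* had 245 reads in GMC101, against 756 in CL2122 at 24 h, and 3 and 12 reads at 8 h. The interval of its log2 fold change at 8 h ran from -4.37 to -0.01. These 3 were lower in GMC101 at both times, and *fbxb-103* was not. For *fbxb-103* (chromosome II, 3907140 to 3908478), GMC101 had 137 reads and CL2122 570 reads at 24 h, a log2 fold change of -1.91 (interval -2.19 to -1.63), whereas at 8 h GMC101 had 17 reads and CL2122 4, a log2 fold change of 2.19 (interval 0.57 to 4.22). The remaining gene called at 8 h was *bath-37*, named after its values were seen, at 15 reads in GMC101, against 4 in CL2122. In edgeR's exact test with a coefficient of 0.2, 0 members passed at 8 h, where 0.579% of all genes passed as lower.

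The fbxb genes were far more abundant at 24 h than at 8 h in each strain. In GMC101 their sum of 490.1 CPM at 24 h was 20.7-fold higher than that of the listed genes at 8 h, and in CL2122 the sum of 1750.1 CPM was 60.0-fold higher. Of 66 fbxb genes listed at both times and measured, 62 were called higher at 24 h in GMC101, against 65 in CL2122, where 14.3% of all genes in GMC101 and 24.8% in CL2122 were. The median log2 ratio of CPM, 24 h over 8 h, was 4.28 in GMC101, against 6.56 in CL2122. Over all genes it was 0.15 in GMC101, against 0.31 in CL2122. The 8 h table is named as a second batch in the sheet title of the study's supplementary table, so that time cannot be told apart from batch, and the 2 tables were normalized separately.

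Single fbxb genes showed this difference in time at very different reads. *fbxb-10* had 587 reads at 24 h and 4 at 8 h in GMC101, a log2 ratio of 6.90 in CPM (interval 5.53 to 8.78). In CL2122 it had 2099 reads at 24 h and 1 at 8 h, a log2 ratio of 10.91 with an interval of 8.43 to 16.21. *fbxb-101* (chromosome I, 14088094 to 14089858) had 407 reads at 24 h and 2 at 8 h in GMC101, and 835 and 4 in CL2122. This was the largest log2 ratio in GMC101, 7.37 (interval 5.51 to 10.42), and its ratio in CL2122, 7.58, was close to it. *fbxb-3* (chromosome IV, 11838980 to 11840423) had 294 reads at 24 h and 2 at 8 h in GMC101, and 714 and 6 in CL2122. *fbxb-13* and *fbxb-75* had 0 reads in CL2122 at 8 h and 1235 and 1114 reads at 24 h. With 0 reads set to 3, they were 377-fold and 340.2-fold higher at 24 h in that strain. The lower ends of the intervals of their log2 ratios were 8.26 and 8.11. *fbxb-91* (chromosome II, 3749061 to 3750785) had 928 reads in CL2122 at 24 h and 1 at 8 h, and 221 and 8 reads in GMC101.

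The math and bath genes had smaller median ratios between the times than the fbxb genes. Of 26 math genes, 5 were called higher at 24 h in GMC101, and of 28 in CL2122, 10 were. Of 35 bath genes in each strain, 7 were called higher in GMC101, against 9 in CL2122, where 14.3% of all genes in GMC101 and 24.8% in CL2122 were. Their median log2 ratios were 0.21 in GMC101, against 0.65 in CL2122 for math, and 0.35 in GMC101, against 0.54 in CL2122 for bath. Over the 3 series, 3 members were called lower at 24 h in GMC101 (13.5% of all genes), and none in CL2122 (14.9%). One was *math-22* (chromosome II, 1905429 to 1907775), which had 97 reads at 24 h and 176 at 8 h in GMC101, and 150 and 185 in CL2122. The other two, *math-48* and *bath-37*, named after their values were seen, had 3 and 7 reads at 24 h in GMC101 against 20 and 15 at 8 h.

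**Figure D3:**
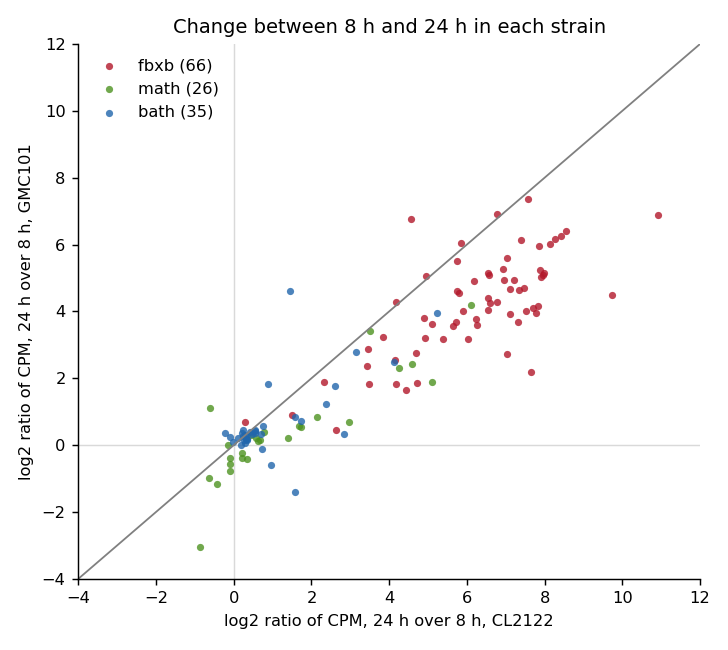
Log2 ratio of CPM, 24 h over 8 h, in GMC101 (vertical axis) against CL2122 (horizontal axis) for the 127 members with at least 10 reads over both times in each strain. Points are genes, and the diagonal marks an equal ratio in both strains. Of the 66 fbxb genes, 60 lie below the diagonal, as do 24 of 26 math and 25 of 35 bath genes. The share of all genes below the diagonal was not counted. Their median ratio was also lower in GMC101, at 0.15, against 0.31 in CL2122, and CPM is not TMM-scaled, so a place below the diagonal is not particular to the members.

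The strain difference itself could be compared between the times for the 81 members measured at both. The log2 fold change at 24 h minus that at 8 h was called lower for 19 members (6.36% of all genes) and higher for 1 (9.64%). The 19 were 9 fbxb, 6 math and 4 bath genes, and the median difference was -1.43 for fbxb, -0.44 for math and 0.07 for bath. The gene with a higher value was *bath-36*, named after its values were seen, at 234 reads in GMC101, against 206 in CL2122 at 24 h, and 53 and 103 reads at 8 h. With total-read scaling 27 members were called lower and 0 higher, so that *bath-36* was no longer called. The share of all genes under that scaling was not counted. In edgeR's likelihood ratio test with a dispersion of 0.04, 3 of the 81 passed as lower, where 0.490% of all genes did. At 8 h few fbxb genes carry enough reads for this comparison.

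The strain difference at 24 h was also counted by level at 8 h. Of all 2189 genes measured at 24 h but below 10 reads or not listed at 8 h, 907 (41.4%) were called lower at 24 h and 75 higher, and their median log2 fold change was -1.07. Among the 81 fbxb genes of this kind, 73 (90.1%) were called lower, with a median of -1.81. The other 22 fbxb genes were measured at 8 h too, and 19 of these (86.4%) were called lower at 24 h with a median of -1.55. Of the math genes low at 8 h, 3 of 6 were called lower, and of the bath genes 0 of 3. Of all genes measured at both times, 8.04% were called lower at 24 h. The minimum of 10 reads is a sum over both strains, which also lets in genes through CL2122 alone, and with at least 10 reads in GMC101 (an alternative added after seeing the data) 454 of 977 genes low at 8 h (46.5%) and 70 of 77 such fbxb genes (90.9%) were called lower. These shares describe the columns and were not tested.

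On the map, 130 members lay in 18 groups of 3 or more with gaps of at most 20 kb. At 24 h, 12.2% of all genes and 92 of the 103 fbxb genes were called lower, so that groups of fbxb genes called throughout go with the share of the series. Of the groups made of fbxb genes alone, some were called lower throughout and others in part. On chromosome V, 8 fbxb genes between 19282614 and 19330747 were all called lower, with log2 fold changes from -2.53 to -1.33. On chromosome III, the 4 fbxb genes between 140134 and 146491 had values from -2.51 to -1.40 and were called as well. On chromosome I, 3 of 4 were called lower in each of 2 such groups, with values up to -0.26 and up to -0.89, and on chromosome II 2 of 3 between 3637811 and 3648599. The longest group, 33 members on chromosome II between 1758326 and 1922744, held 23 math, 7 fbxb and 3 bath genes, and 9 of its 26 measured members were called lower. In a group of 11 between 2025642 and 2065870 none of the 7 bath genes was called and their values ran from -0.77 (*bath-20*) to 0.53, while *fbxb-6*, *fbxb-35* and *fbxb-36* (all 4 named for their place there) were each called lower.

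Within the stretch of chromosome II that holds 92 members, 47 of 84 measured members were called lower at 24 h, and outside it 56 of 87 were. Of all genes, 12.2% were called lower. The medians were -1.40 inside and -1.43 outside. For fbxb alone, 39 of 41 genes inside and 53 of 62 outside were called lower. The other 320 protein-coding genes measured in the stretch had a median log2 fold change of -0.75, with 37.2% called lower and 10 genes higher. Of the math genes 37 of 39 lie in the stretch, so that place and series cannot be told apart for them, whereas 14 of 37 bath genes and 41 of 103 fbxb genes do. The fbxa and fbxc genes, the other F-box series, had 44 of 177 called lower and 10 higher at 24 h, beside 12.2% and 9.02% of all genes. Their median was -0.53.

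**Figure D4:**
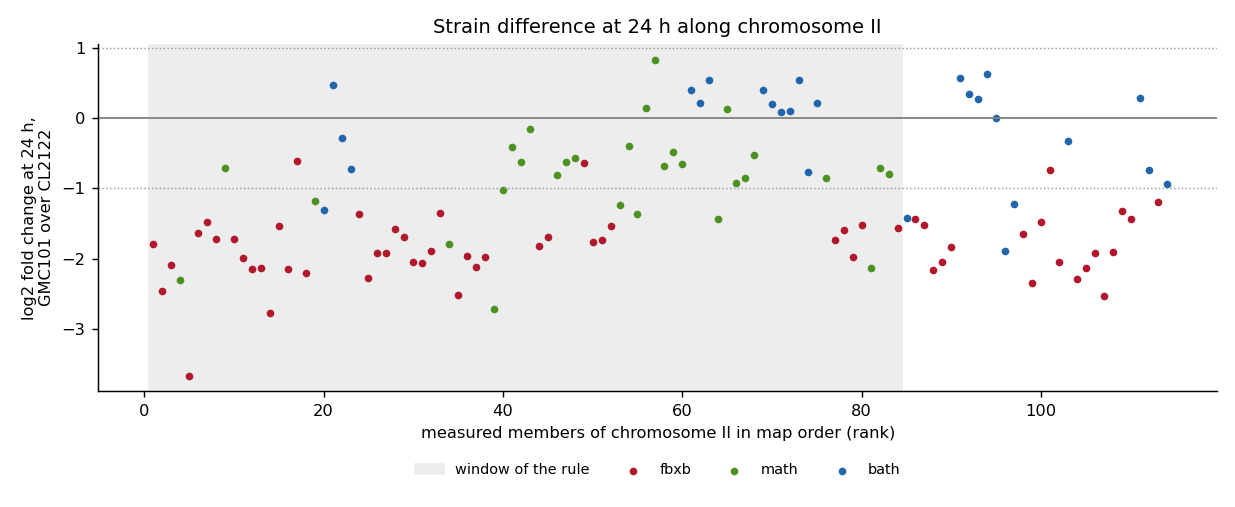
Log2 fold change of GMC101 over CL2122 at 24 h (vertical axis) for the measured members of chromosome II in map order (horizontal axis, rank). Colors give the series, shading marks the stretch that holds 92 members, and dotted lines mark 2-fold. The fbxb points lie below 0 inside and outside the shading, and the bath points are mostly near 0.

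Proteins that work with these adaptors were followed by lists of their genes. The 7 CUL-3 ligase genes, among them *cul-3* itself and *mel-26*, a well-studied BATH-type adaptor gene with a name of its own, had 0 calls at 24 h and a median log2 fold change of 0.24. *cul-3* had 7235 reads in GMC101, against 7292 in CL2122, and *mel-26* had 5495 in GMC101, against 5326 in CL2122. With total-read scaling that median was 0.05. No call was made for 9 SCF and other cullin genes (median 0.08) or for 7 genes of the COP9 signalosome, which removes the activating NEDD8 from cullins (median 0.09), and these medians were each -0.11 with total-read scaling. *cul-1* had 3947 reads in GMC101, against 4134 in CL2122. Of all genes, 12.2% were called lower and 9.02% higher at 24 h.

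The Skp1-related genes, whose proteins bind F-boxes, were mixed. Of 21 in the list, 20 were measured at 24 h, and the median was -0.87. Of these, 7 were called lower and 1 higher, where 12.2% and 9.02% of all genes were. Of the 7, 4 passed edgeR's exact test at a coefficient of 0.2, where 4.72% of all genes passed as lower. The genes called lower were *skr-5*, *skr-7*, *skr-8*, *skr-10*, *skr-12*, *skr-13* and *skr-14*. *skr-7* had 1107 reads in GMC101, against 3127 in CL2122, a log2 fold change of -1.35 (interval -1.45 to -1.25). For *skr-13* there were 220 reads in GMC101, against 786 in CL2122, a log2 fold change of -1.69 (interval -1.91 to -1.47). *skr-1*, which encodes a core subunit of worm SCF complexes, had 6255 reads in GMC101, against 8113 in CL2122, a log2 fold change of -0.22. The one called higher, *skr-11*, had 169 reads in GMC101, against 93 in CL2122, a log2 fold change of 1.01, which is under 2-fold with total-read scaling. At 8 h, 0 were called higher and 1 lower of 20, beside 2.27% and 4.14% of all genes.

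**Figure D5:**
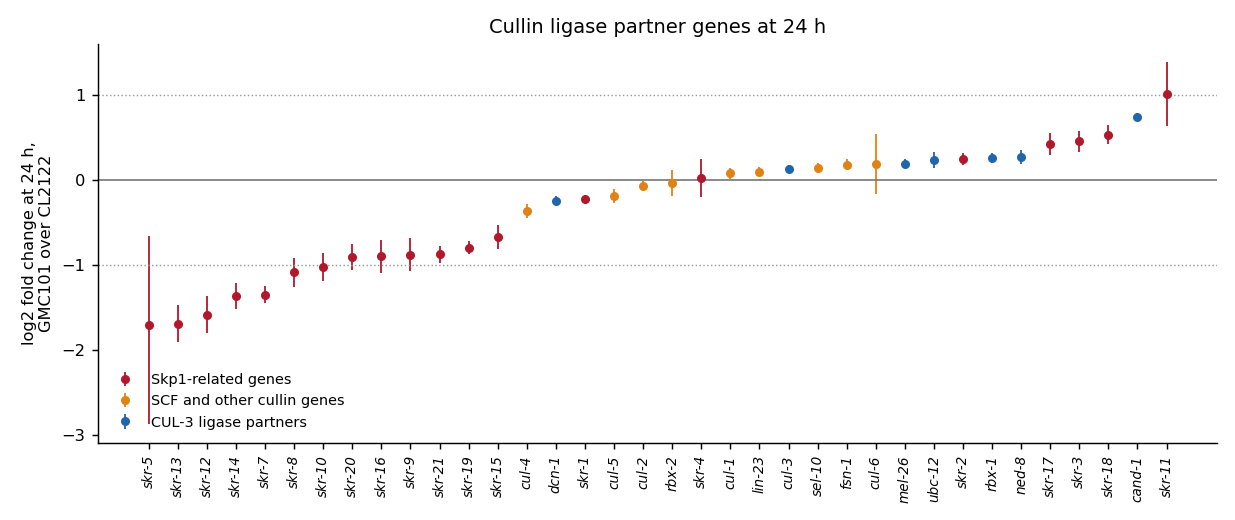
Log2 fold change of GMC101 over CL2122 at 24 h (vertical axis) with its 95% counting interval for each measured Skp1-related gene, SCF or other cullin gene and CUL-3 ligase gene, ordered by value. Dotted lines mark 2-fold. The cullin and CUL-3 partner genes lie between -0.36 and 0.74, and 7 Skp1-related genes lie beyond the lower line.

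Skp1-related and F-box proteins also act in the worm's response to intracellular pathogens, so the pals genes and others of that response were listed too. Of 19 measured at 24 h, 2 were called higher and 6 lower, with a median of -0.66, where 9.02% of all genes were called higher and 12.2% lower. *pals-22* and *pals-25*, a repressor and an activator of this response, had 154 and 219 reads in GMC101, against 400 and 559 reads in CL2122, and both were among the 6 called lower. In edgeR's exact test at a coefficient of 0.2 none of the list passed as lower and 2 passed as higher, where 4.72% and 4.02% of all genes did.

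Marker genes of several tissues moved between the strains at 24 h as well, where 9.02% of all genes were called higher and 12.2% lower. Of 27 sperm genes measured (of 29 listed), 26 were called higher in GMC101, with a sum of 260.1 CPM in GMC101, against 52.4 CPM in CL2122 and a median log2 fold change of 2.54, while at 8 h they summed to 3289 CPM in GMC101, against 2659 CPM in CL2122 with 0 calls. Of 12 body wall muscle genes 6 were called higher, at 4853 CPM in GMC101, against 2704 CPM in CL2122. Of these sums *unc-54* alone held 2047 CPM in GMC101, against 1036 CPM in CL2122. Whether reads of the unc-54 3'-UTR in the GMC101 transgene, or of the unc-54 vector in CL2122, are counted in this gene is not stated. All 17 oocyte and eggshell genes were above 0 with 0 calls, at 11634 CPM in GMC101, against 8373 CPM in CL2122. Of 12 early zygotic genes measured (of 14 listed), which are read in embryos, 2 were called lower and 10 were below 0, at 186 CPM in GMC101, against 255 CPM in CL2122. *tbx-37* and *tbx-38*, which passed as lower, were not listed at 8 h. For intestine 4 of 9 were called higher, at 40919 CPM in GMC101, against 21927 CPM in CL2122. Most of this sum was *vit-2*, *vit-5* and *vit-6*, and *elt-2*, *ges-1* and *asp-1* were below 0. For hypodermis 4 of 10 were called higher and 1 lower, and 4 were below 0, with a median of 0.26. Their sum was 1041 CPM in GMC101, against 424 CPM in CL2122, most of it *col-19* and *lin-41*. Of the 10 neuron genes 1 was called lower, at 610.4 CPM in GMC101, against 728 CPM in CL2122. At 24 h no measured marker of these lists was at 0 reads in either strain. The part of these tissues in the differences of the fbxb and math genes was not tested.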

How the data were processed

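RNA from whole GMC101 and CL2122 worms was sequenced on the Illumina NovaSeq (paired reads, NEBNext Ultra kit, which does not mark strand). Per the labels' processing notes, HISAT2 2.05, StringTie 1.33 and DESeq2 were used, with no role given, and the genome build is not given in the sources used here. The authors deposited 1 table per time with 1 expression signal per gene and strain, a normalized read count. The gene lengths, coordinates and symbols are also the deposited ones, with length in bases. Nothing states how the 10 labeled samples became these columns. The authors' columns of log2 fold changes, p-values and adjusted p-values hold their own comparison and were not used.

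Whole reads were recovered by dividing each column by the value of 1 read, and 100% of values came out whole within 0.1 read. Every listed gene had at least 2 reads over both strains of its table. A test on replicates had been planned, but the columns hold none. Log2 fold changes were therefore computed from the reads, scaled by TMM within a table, with 95% exact Clopper-Pearson intervals, and a strain at 0 reads was set to 3 reads. Times were compared by CPM. edgeR's exact test (Benjamini-Hochberg adjusted p under 0.05 and 2-fold) with assumed coefficients of variation of 0.1, 0.2 and 0.4 served as an alternative over all genes of a table, and so did its likelihood ratio test with a dispersion of 0.04. The other alternatives were scalings, pseudocounts of 1 and 5, and read minimums of 1 and 50. The code was tested on simulated data.

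The members and gene lists were chosen with earlier results of these data known. Genes were named by rule, namely the 8 largest differences in each direction at each time with at least 50 reads in the higher strain, all genes called at both times, the 6 highest mean RPKM, the 4 largest changes in time per strain and direction, and *math-33*, and others are marked as named after their values were seen. All 179 member identifiers were found in Ensembl's WBcel235 annotation and overlap their position there, 25 with the same ends. Software was edgeR 4.0.16 and DESeq2 1.42.0 (for size factors) in R 4.3.3, and scipy 1.17.1, pandas 2.3.3, numpy 2.4.6 and matplotlib 3.10.9 in Python 3.11.15.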

Additional observations from a re-analysis of the deposited data

Results flagged for a closer look

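For 7 members the strain difference at 24 h differed from that at 8 h in edgeR's likelihood ratio test over the 4 columns, with an assumed dispersion of 0.04, which compares these columns and not the conditions. Only *fbxb-103*, *fbxb-53* and *math-34* were measured at both times, the 3 of 81 given above. Of all genes measured at both times, 0.490% passed as lower. The other 4 members had fewer than 10 reads at 8 h. The difference of the log2 fold changes, 24 h minus 8 h, was -2.30 for *fbxb-102*, -4.09 for *fbxb-103*, -5.23 for *fbxb-52*, -3.39 for *fbxb-53*, -2.67 for *fbxb-71*, -5.02 for *fbxb-91* and -2.99 for *math-34*. Each was lower in GMC101 at 24 h and had more reads in GMC101 than in CL2122 at 8 h. The 8 h values rested on few reads, as *fbxb-103*, *fbxb-53* and *math-34* had 17, 10 and 12 reads in GMC101 and 4, 4 and 8 in CL2122. *fbxb-52* and *fbxb-91* had 8 reads each in GMC101 and 1 each in CL2122. For *fbxb-71* and *fbxb-102*, GMC101 had 4 and 6 reads and CL2122 0, so that their values are set by the floor of 3 reads.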

How the results depend on the processing

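The number of members called at 24 h was 103 and stayed between 85 and 109 under the other scalings, pseudocounts, read minimums and assumed coefficients of 0.1 and 0.2, all of them lower in GMC101, but it was 0 with edgeR's exact test at a coefficient of 0.4. The median log2 fold change at 24 h lay between -1.62 and -1.30 under the alternatives. At 8 h the 6 calls became 10 with no read minimum, 1 with a minimum of 50 reads, 13 by 2-fold alone, 0 with edgeR's exact test at coefficients of 0.2 and 0.4, and 1 at 0.1. The 20 members whose strain difference differed between the times became 27 with total-read scaling, 0 of them higher. They became 3 in the likelihood ratio test and 5 with a minimum of 50 reads at each time. Total-read scaling shifted log2 fold changes by -0.19 at 24 h and 0.03 at 8 h, and no member named by the rule changed direction, but *cul-3* and *cul-1* did at 24 h. Leaving out replicates was not run, since the columns hold 1 value per strain. No paired analysis was possible because the columns carry no replicate number. Low read numbers limit the fbxb values at 8 h, where 38 of 66 listed fbxb genes in GMC101 and 37 in CL2122 had 3 reads or fewer.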

Other observations

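The name pattern also takes in 21 genes that the tables annotate as pseudogenes, which were left out of the members. Of these 18 were measured at 24 h, 6 were called lower in GMC101 and none higher, and their median log2 fold change was -0.92, beside the 12.2% of all genes called lower. The 6 were *bath-8*, *bath-18*, *fbxb-12*, *fbxb-27*, *fbxb-80* and *fbxb-94*. The pseudogene *fbxb-94* had 59 reads in GMC101, against 225 in CL2122 at 24 h, and 2 and 1 reads in these strains at 8 h. It lies between 14085688 and 14086685 on chromosome I, beside the members *fbxb-93*, *fbxb-101* and *fbxb-100*. *fbxb-12* had 69 reads in GMC101, against 199 in CL2122 at 24 h. At 8 h, *fbxb-4* was called lower, at 10 reads in GMC101, against 29 in CL2122.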
